A study of Mus musculus with 2 samples.

Results

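The antiviral genes that interferon switches on were described here in regulatory T (Treg) cells of the spleen, a suppressive CD4 lineage defined by the transcription factor Foxp3. The set holds 42 genes chosen by symbol, out of 34745 gene rows in the deposited tables: effectors that block virus entry, translation, replication or release, and sensors of foreign RNA and DNA. All 42 symbols had a row in both tables. RNA was sequenced from 1 knockout library, of YFP-positive CD4 cells from 2-week-old poh1fl/fl Foxp3Cre+ mice, and 1 wild-type library, of such cells from poh1+/+ Foxp3Cre+ mice of the same age, all C57BL/6. Both genotypes carry the Foxp3-Cre allele with its YFP reporter, so Cre is driven by the Foxp3 gene and is present in the wild type too. POH1 is the protein of Psmd14, the deubiquitinase of the proteasome lid. How many mice gave RNA to each library is not stated in the labels.

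Type I interferons signal through IFNAR and the kinases JAK1 and TYK2 to a transcription factor complex that holds STAT2 and IRF9 and binds the interferon-stimulated response element (ISRE) in the promoters of these genes. Type II interferon acts through another element, the gamma-activated site (GAS). Many antiviral genes are held at a low basal level in resting T cells and are raised together by either route.

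The libraries held 14544212 counts (knockout) and 18124611 counts (wild type). With 1 library per genotype the spread between mice is unknown and no p-value is given. Parentheses after a ratio hold its 95% interval, which covers counting error only. Levels are in CPM, the count of a gene divided by the scaled library total. The call required an interval entirely past 1.5-fold in either direction, and 13464 genes that reached 1 CPM in at least 1 library were measured in this sense. Psmd14 had 463 counts, or 31.8 CPM, in the knockout library and 1619 counts, or 89.4 CPM, in the wild-type library, a ratio of 0.356 (0.321 to 0.395), in the direction of the labels. The 8 Treg markers summed to 5290 CPM in the knockout and 5118 CPM in the wild-type library (2 higher, 2 lower). Called higher were Foxp3, at 1073 CPM in the knockout and 671 CPM in the wild-type library, and Il2ra, at 1530 and 990 CPM. Called lower were Ctla4, at 703 CPM in the knockout and 1120 CPM in the wild-type library, and Ikzf2, at 526 and 825 CPM.

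Antiviral genes were higher in the knockout library as a set, but unevenly. Of the 41 measured members, 22 were called higher, or 53.7%, against 9.58% of all measured genes. None of the 41 was called lower, against 12.3% of all measured genes. Over the measured members the log2 ratio had a median of 0.79, a 1.73-fold higher level, and -0.01 over all measured genes. The summed level of the members was 7511 CPM in the knockout library and 4073 CPM in the wild-type library. They took 0.751% of all counts in the knockout library and 0.407% in the wild-type library. The ratio was above 1 in 38 of the 41, and the interval lay above 1 in 32 (34.3% of all measured genes), held 1 in 6 and lay below 1 in 3 (35.2% of all measured genes). With an interval wholly beyond 2-fold, 14 members were higher, against 4.34% of all measured genes, and 0 lower, against 6.63%. In bulk RNA, more cells with a transcript and more of it per cell cannot be told apart.

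**Figure D1:**
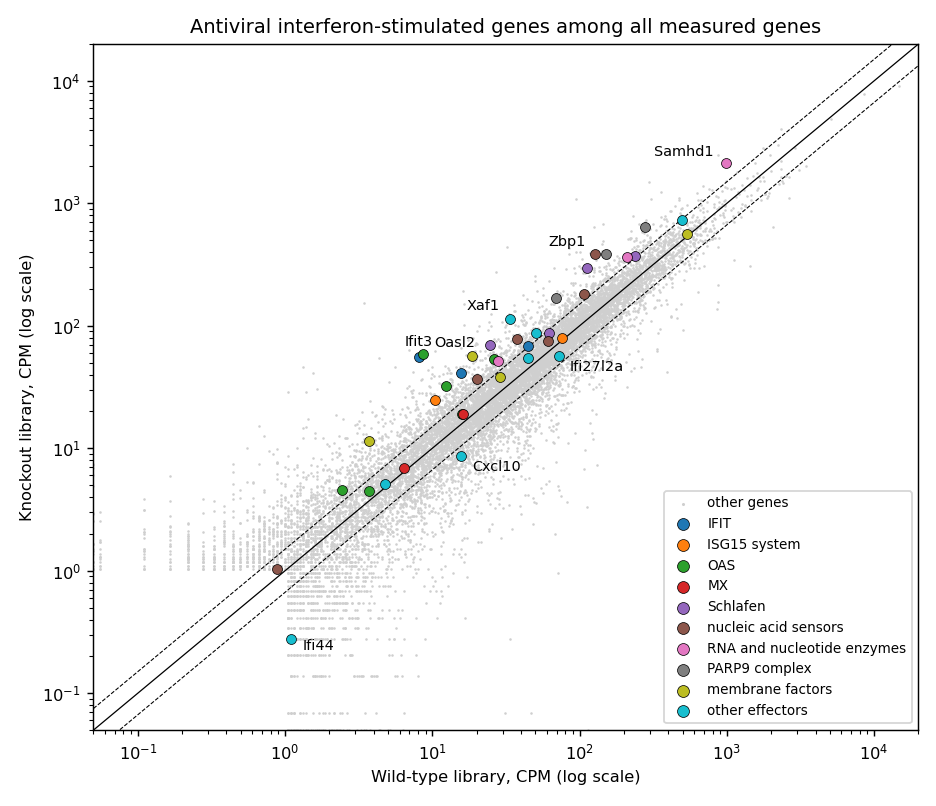
CPM in the knockout library (vertical) against the wild-type library (horizontal), both on log scales, for measured genes (grey) and the members (coloured by class). The solid line marks equal levels and the dashed lines 1.5-fold, and values under 0.05 CPM are drawn at the axis edge. Most members lie above the upper dashed line, Ifit3 and Oasl2 farthest from it, while Ifi44, Cxcl10 and Ifi27l2a lie below equality.

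Of the 42, Oas1g did not reach 1 CPM and had 0 counts in both libraries, which allows up to 0.206 CPM in the knockout and 0.166 CPM in the wild-type library. Tlr3 reached 1 CPM through the knockout library alone and Ifi44 through the wild-type library alone. Of the 19 measured members called neither higher nor lower, 12 had an interval that ended below 1.5-fold higher: Herc6, Oas1b, Mx1, Mx2, Eif2ak2, Bst2, Ly6e, Rsad2, Ifi44, Ifi27l2a, Phf11b and Cxcl10. Among these 12, Ifi44 (0.0619 to 0.744) and Cxcl10 (0.439 to 0.676) had intervals that held a 1.5-fold lower level. For both, a lower level of that size was neither shown nor set aside. The intervals of the other 7 (Ifit2, Oas1a, Oasl1, Slfn2, Slfn5, Tlr3 and Sp100) held 1.5-fold, so a difference of that size could be neither shown nor set aside at this depth. The 6 members below 10 CPM in both libraries (Oas1a, Oasl1, Mx2, Tlr3, Rsad2 and Ifi44) were all among the 19.

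**Figure D2:**
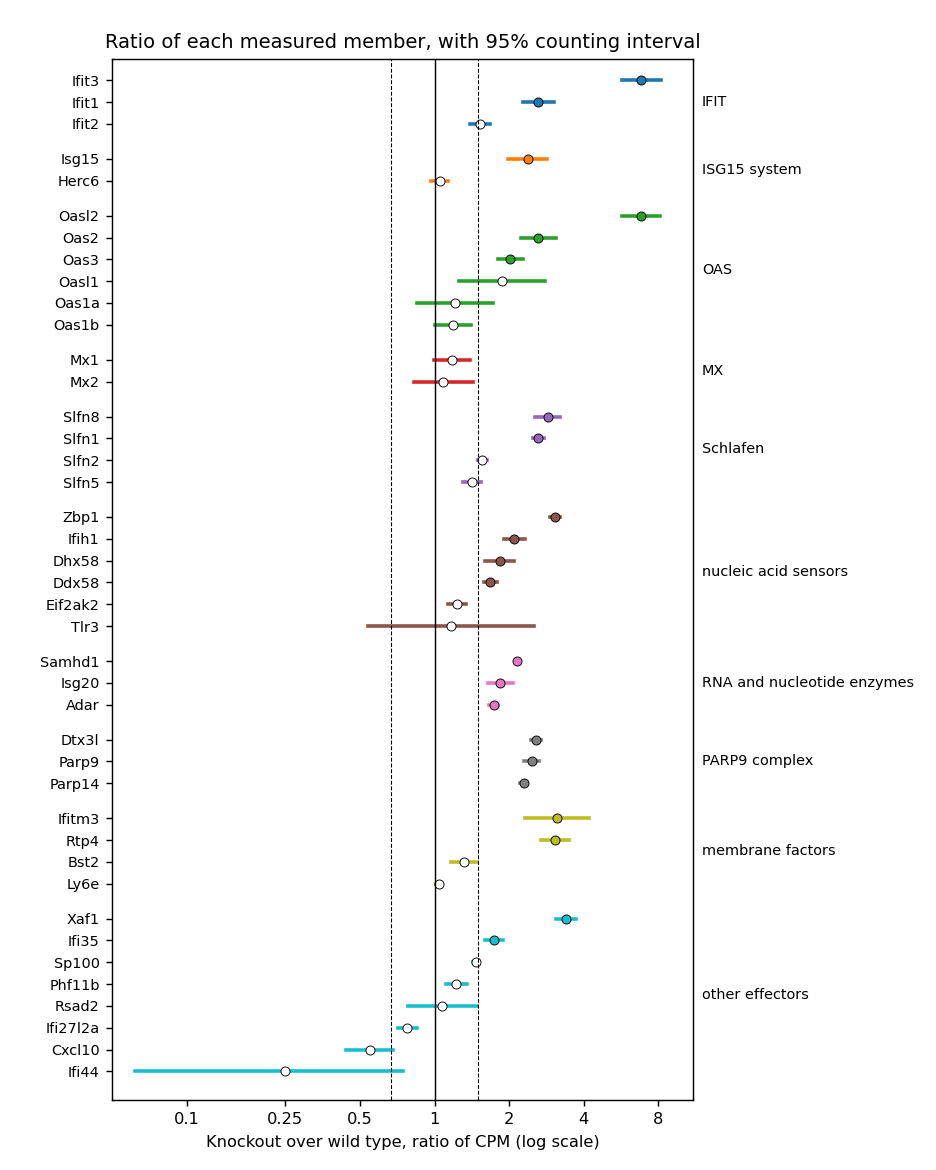
Ratio of CPM, knockout over wild type (log scale), of each of the 41 measured members by class, with 95% counting intervals as bars. Filled points are called higher and open points neither, the solid line marks a ratio of 1 and the dashed lines 1.5-fold either way. Intervals are narrow for abundant genes such as Samhd1 (2.11 to 2.19) and wide for rare ones such as Tlr3 (0.538 to 2.52).

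Promoter sequences show what part of the set shares the element of the type I route. The RefSeq promoter table (GRCm38.p6, 250 bases before and 50 after each start) had entries for 31 of the 42 members and none for Oas1b, Oas2, Mx1, Mx2, Dhx58, Zbp1, Parp9, Parp14, Ly6e, Rtp4 and Ifi27l2a. The windows printed here are 80 bases upstream of the start, 5′ to 3′ on the gene's strand, with matches to the ISRE core in capitals: GAAA, any 2 bases and GAAA again, or on the other strand TTTC, any 2 bases and TTTC, overlaps allowed. Ifit3 (chr19:34583355-34583434), Ifit1 (chr19:34640759-34640838) and Isg15 (chr4:156200846-156200925, minus strand) are shown as members called higher. Oas1a (chr5:120907526-120907605, minus strand), Oas1g (chr5:120887614-120887693, minus strand), Rsad2 (chr12:26456528-26456607, minus strand) and Cxcl10 (chr5:92349058-92349137, minus strand) are shown as members that hold the core but were not called higher. Of these, Oas1g had 0 counts in both libraries and could not be called, and the interval of Oas1a (0.846 to 1.73) held 1.5-fold.
Ifit3: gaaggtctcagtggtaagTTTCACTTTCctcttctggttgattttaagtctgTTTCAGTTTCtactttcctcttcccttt
Ifit1: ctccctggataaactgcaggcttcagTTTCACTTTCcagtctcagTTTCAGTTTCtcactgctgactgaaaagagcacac
Isg15: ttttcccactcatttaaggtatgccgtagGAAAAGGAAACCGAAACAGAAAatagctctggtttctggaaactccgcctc
Oas1a: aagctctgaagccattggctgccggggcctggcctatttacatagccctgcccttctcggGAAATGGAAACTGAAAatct
Oas1g: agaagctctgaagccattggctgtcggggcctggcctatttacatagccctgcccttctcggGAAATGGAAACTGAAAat
Rsad2: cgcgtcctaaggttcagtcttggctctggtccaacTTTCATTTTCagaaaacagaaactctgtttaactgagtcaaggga
Cxcl10: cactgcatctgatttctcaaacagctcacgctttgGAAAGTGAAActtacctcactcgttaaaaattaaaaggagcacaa
Ifit3 and Ifit1 each hold a pair of cores, and Isg15 holds 3 overlapping matches in a single run. An ISRE core was found in 16 of the 31 members (51.6%) and in 17 of their 38 promoters (44.7%), against 3.44% of all 32851 promoters in the table. A GAS match (TTCNNNGAA, its own reverse complement) was found in 9 of the 31 members (29.0%) and in 9 of their 38 promoters (23.7%), against 8.30% of all promoters. Oas1a, Eif2ak2, Bst2 and Ifitm3 held both motifs, and 10 members held neither in this window.

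Members with and without the core were called higher in equal numbers. Of 15 measured members with an ISRE core in the window, 8 were called higher, and of 15 without, 8 were called higher. The median log2 ratio was 0.74 with the core and 0.79 without it. Of 9 measured members with a GAS match 5 were called higher, and of 21 without 11 were. Oasl2, whose ratio was almost equal to that of Ifit3, held neither motif in these letters and this window. The matches lay at varied distances: at 104 to 76 bases before the start in Ifit1, at 156 to 113 bases in Ifit3, and at 213 to 204 bases in Cxcl10.

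**Figure D3:**
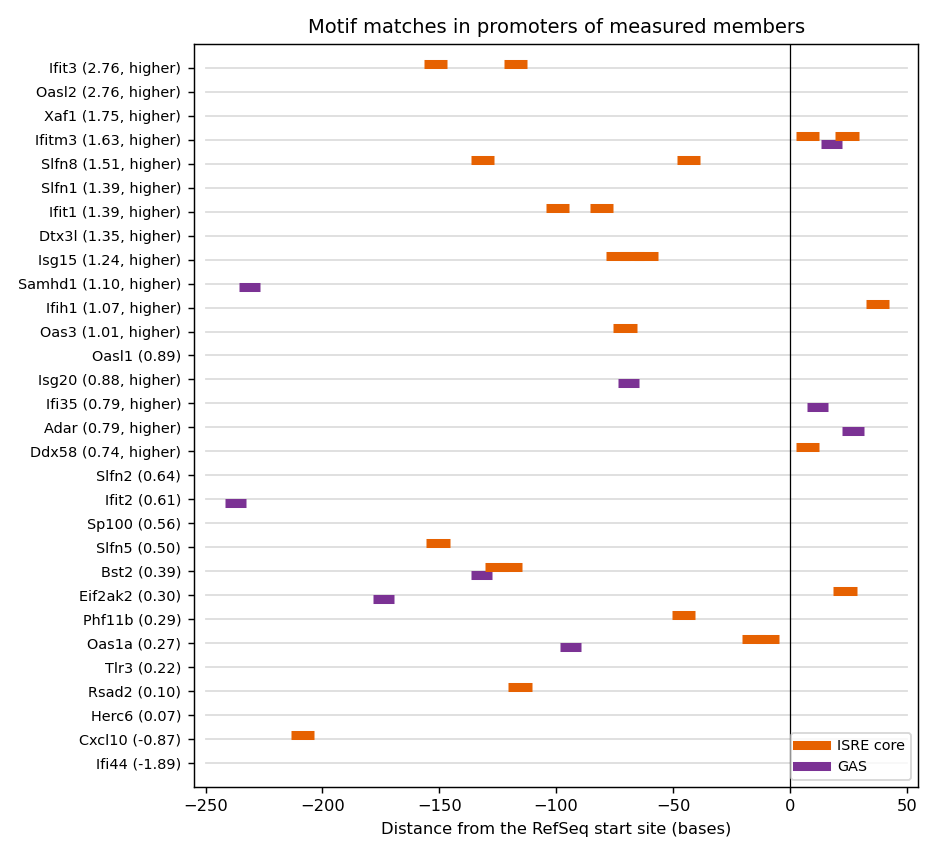
Positions of ISRE core (orange) and GAS (purple) matches in the 300-base promoter windows of the measured members with an entry, by distance from the RefSeq start site in bases. Genes are ordered by log2 ratio (in parentheses), the highest at the top, and those called higher are marked. Slfn8 has 2 annotated starts, so its single match is drawn at both distances. Motif matches occur among genes at the top and at the bottom of the order.

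The IFIT genes encode proteins that bind viral RNA lacking the host's cap marks and block its translation, and they sit together on chromosome 19 from 34550694 to 34650009 (GENCODE M21, mm10). Ifit3 had 810 counts, or 55.7 CPM, in the knockout library and 148 counts, or 8.17 CPM, in the wild-type library, 6.82-fold higher (5.71 to 8.18). This is the largest ratio of the set, rank 54 from the top of the 13464 measured genes by the interval bound nearest to 1. Ifit1 had 602 counts (41.4 CPM) in the knockout and 286 counts (15.8 CPM) in the wild-type library, 2.62-fold higher (2.27 to 3.03). Ifit2 had 987 counts (67.8 CPM) and 808 counts (44.6 CPM) in knockout and wild type, a ratio of 1.52 (1.38 to 1.67) that was not called. The ratios thus differed more than their counting intervals within this small cluster. The transcripts of Ifit3 share 51.2% of their 50-base words with its near copy Ifit3b, so reads of the pair could have been split or dropped. Summed over Ifit3 and Ifit3b, the counts were 920 in the knockout and 164 in the wild-type library, a ratio of 6.99 (5.91 to 8.30). The other relatives measured, Ifit1bl1 and Ifit1bl2, were also called higher, Ifit1bl1 with 1485 counts in the knockout and 299 counts in the wild-type library (6.19-fold, 5.46 to 7.03).

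The OAS enzymes sense double-stranded RNA and make oligoadenylates that set off RNA decay. Of the 6 measured members, 3 were called higher. Oasl2, an OAS-like synthetase with ubiquitin-like domains, had 856 counts (58.8 CPM) in the knockout and 157 counts (8.66 CPM) in the wild-type library, 6.79-fold higher (5.72 to 8.10). Oas2 had 472 counts (32.4 CPM) in the knockout and 224 counts (12.4 CPM) in the wild-type library, 2.62-fold higher (2.23 to 3.09). Oas3 had 776 counts (53.3 CPM) in the knockout and 478 counts (26.4 CPM) in the wild-type library, 2.02-fold higher (1.80 to 2.27). The other measured OAS genes were not called. Oas1b, annotated as a polymorphic pseudogene and truncated by a stop codon in C57BL/6 mice, had 276 counts in the knockout and 289 counts in the wild-type library (ratio 1.19, 1.00 to 1.41). Oas1a, an active synthetase, had 65 counts in the knockout and 67 counts in the wild-type library (ratio 1.21, 0.846 to 1.73). Oasl1, which restrains Irf7 translation in mice, had 66 counts in the knockout and 44 counts in the wild-type library (ratio 1.87, 1.26 to 2.80).

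Oas2, Oas3 and the Oas1 genes form a cluster on chromosome 5 from 120730333 to 120907521, and Oasl2 and Oasl1 a smaller cluster from 114896936 to 114937915 on the same chromosome. Each cluster thus held members called higher next to members that were not. Oas1a shares 57.6% of its 50-base words with other genes and Oas1g 45.7%, including each other, and how reads that fit both were counted is not stated, which bears on the 0 counts of Oas1g. Over their promoter entries 207 of 298 aligned bases (69.5%) were identical, and the printed windows carry the same ISRE run. Of the other Oas1 genes listed, Oas1c had 401 counts in the knockout and 418 counts in the wild-type library (ratio 1.19, 1.04 to 1.37), and Oas1d, Oas1e, Oas1f and Oas1h had 0 counts in both.

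ISG15 is a ubiquitin-like protein that interferon induces and that a dedicated enzyme chain attaches to other proteins. Isg15 (chromosome 4, 156199424 to 156200818) had 360 counts (24.7 CPM) in the knockout and 189 counts (10.4 CPM) in the wild-type library, 2.37-fold higher (1.98 to 2.84). Uba7, its activating enzyme, had 5162 counts in the knockout and 2809 counts in the wild-type library, 2.29-fold higher (2.19 to 2.40). Usp18, the protease that removes ISG15 and also restrains the receptor IFNAR2, had 565 counts in the knockout and 186 counts in the wild-type library, 3.78-fold higher (3.20 to 4.49). Ube2l6, the conjugating enzyme, had 241 counts in the knockout and 183 counts in the wild-type library (ratio 1.64, 1.35 to 2.00) and was not called. Herc6, the ligase of the chain in mice, was close to equal, with 1153 counts (79.3 CPM) in the knockout and 1372 counts (75.7 CPM) in the wild-type library (ratio 1.05, 0.967 to 1.13). Modifier, first enzyme and protease were therefore called higher, and the ligase was not.

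The MX genes encode dynamin-like GTPases that trap viral nucleoproteins, and they lie on chromosome 16 from 97447035 to 97560900. Mx1 had 276 counts (18.97 CPM) in the knockout and 293 counts (16.2 CPM) in the wild-type library (ratio 1.17, 0.992 to 1.39). Mx2 had 101 counts (6.94 CPM) in the knockout and 116 counts (6.40 CPM) in the wild-type library (ratio 1.08, 0.822 to 1.43). Neither was called, and both intervals ended below 1.5-fold. Both genes are known to be defective in most laboratory mouse strains, and the annotation lists Mx2 as a polymorphic pseudogene.

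Schlafen genes, which restrain T cell activation and, in their long forms, act on RNA, were split within a cluster on chromosome 11 from 82951349 to 83122670. Slfn1, a short form linked to T cell quiescence, had 4307 counts (296 CPM) in the knockout and 2047 counts (113 CPM) in the wild-type library, 2.62-fold higher (2.49 to 2.76). Slfn8, a long form, had 1018 counts (69.98 CPM) in the knockout and 444 counts (24.5 CPM) in the wild-type library, 2.86-fold higher (2.55 to 3.20). Slfn2, whose loss breaks T cell quiescence in mice, was the most abundant of them with 5403 counts (371 CPM) in the knockout and 4319 counts (238 CPM) in the wild-type library (ratio 1.56, 1.497 to 1.62). Its interval only just reached under 1.5-fold, and so it was not called. Slfn5 had 1270 counts in the knockout and 1119 counts in the wild-type library (ratio 1.41, 1.30 to 1.53). Of the 4 measured relatives, Slfn9 (2.46-fold, 2.30 to 2.64) and Slfn4 (2.68-fold, 1.67 to 4.39) were called higher, while Slfn3 had a ratio of 0.661 (0.537 to 0.811) and Slfn10-ps of 0.667 (0.573 to 0.773). Slfn8 shares 14.6% of its words with Slfn9 and Slfn10-ps, and the 3 together had a ratio of 2.13 (2.02 to 2.24).

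Of the 6 nucleic acid sensors in the set, 4 were called higher. Zbp1, a sensor of left-handed nucleic acid that can start necroptosis (chromosome 2, 173206612 to 173218923), had 5655 counts (389 CPM) in the knockout and 2304 counts (127 CPM) in the wild-type library, 3.06-fold higher (2.91 to 3.21). The cytosolic RNA helicases were all called higher. Ifih1, encoding MDA5, which senses long double-stranded RNA, had 1144 counts (78.6 CPM) in the knockout and 680 counts (37.5 CPM) in the wild-type library, 2.10-fold higher (1.90 to 2.31). Dhx58, encoding the regulator LGP2, had 537 counts (36.9 CPM) in the knockout and 365 counts (20.1 CPM) in the wild-type library, 1.83-fold higher (1.60 to 2.10). Ddx58, encoding RIG-I, which senses short RNA with uncapped ends, had 2633 counts (181 CPM) in the knockout and 1957 counts (108 CPM) in the wild-type library, 1.68-fold higher (1.58 to 1.78), the smallest ratio among members called higher. Eif2ak2, encoding the kinase PKR that halts translation on sensing double-stranded RNA, had 1101 counts (75.7 CPM) in the knockout and 1112 counts (61.4 CPM) in the wild-type library (ratio 1.23, 1.13 to 1.34). Tlr3, an endosomal sensor that dendritic cells use, had 15 counts in the knockout and 16 counts in the wild-type library, which leaves its ratio undetermined (1.17, 0.538 to 2.52). Of the 9 conventional dendritic cell markers, 0 were called higher, 4 lower and 5 neither, against 9.58% higher and 12.3% lower of all measured genes. Xcr1, Clec9a and Cd209a, among the 4, had 0 counts in the knockout library, against 48, 23 and 33 counts in the wild-type library. The ratios of the 5 lay between 0.989 and 1.73, and Cd74, the most abundant, was at 298 CPM in the knockout and 281 CPM in the wild-type library. The part of these cells in the Tlr3 level was not tested.

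Below the sensors stand adaptors and kinases that pass the signal on. Of 13 genes listed for this layer, 1 of them a DNA sensor gene, 2 were called higher (15.4%), 1 lower (7.69%) and 10 neither. Their median log2 ratio was -0.05. These shares were near those of all measured genes, 9.58% higher and 12.3% lower. The kinase genes Ikbke (10868 counts in the knockout and 7049 in the wild-type library, 1.92-fold, 1.86 to 1.98) and Tbk1 (2172 counts in the knockout and 1689 in the wild-type library, 1.602-fold, 1.502 to 1.71) were called higher. The 1 called lower was not an adaptor or kinase gene but that DNA sensor gene, Mb21d1, encoding cGAS. It had 123 counts in the knockout and 312 counts in the wild-type library and was 2.04-fold lower (1.65 to 2.53). Mavs, the adaptor of the RNA helicases, had 515 counts in the knockout and 666 counts in the wild-type library (ratio 0.963, 0.857 to 1.08).

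Enzymes that act on RNA and nucleotides were called higher in all 3 cases. Samhd1, which degrades the nucleotides that retroviruses need (chromosome 2, 157097533 to 157135265), had the most counts of the set, 31005 (2131 CPM) in the knockout and 17990 (993 CPM) in the wild-type library, 2.15-fold higher (2.11 to 2.19). It made up 28.4% of the members' counts in the knockout and 24.4% in the wild-type library, and without it the other members summed to 5380 CPM in the knockout and 3080 CPM in the wild-type library, a ratio of 1.75 (1.73 to 1.77). Adar, which edits adenosine in double-stranded RNA and so hides self RNA from MDA5, had 5291 counts (364 CPM) in the knockout and 3811 counts (210.3 CPM) in the wild-type library, 1.73-fold higher (1.66 to 1.80). Isg20, an RNA exonuclease, had 755 counts (51.9 CPM) in the knockout and 510 counts (28.1 CPM) in the wild-type library, 1.84-fold higher (1.65 to 2.07). Adar shares exon bases with Chrnb2 over 16.8% of its exon length, the largest such overlap in the set, and reads without strand could belong to either. The related editing enzyme Adarb1 was 1.88-fold lower (1.51 to 2.35), with 118 counts in the knockout and 276 counts in the wild-type library.

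PARP9 and DTX3L form an ubiquitin ligase, and PARP14 is an ADP-ribosyl transferase, encoded side by side on chromosome 16 from 35832874 to 35972605. All 3 were called higher, by ratios between 2.29 and 2.56. Dtx3l had 5592 counts (384 CPM) in the knockout and 2723 counts (150.3 CPM) in the wild-type library, 2.56-fold higher (2.44 to 2.68). Parp9 had 2464 counts (169 CPM) in the knockout and 1246 counts (68.8 CPM) in the wild-type library, 2.46-fold higher (2.30 to 2.64). Parp14 had 9261 counts (637 CPM) in the knockout and 5039 counts (278 CPM) in the wild-type library, 2.29-fold higher (2.21 to 2.37). Parp9 and Dtx3l run in opposite directions and share exon bases at their starts, 9.40% of the Parp9 and 8.0% of the Dtx3l exon length, so a small part of their counts cannot be told apart. This was the sole gene cluster of the set in which every member was called higher.

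Membrane factors were split. Ifitm3, which stops viruses from fusing in endosomes, had 167 counts (11.5 CPM) in the knockout and 67 counts (3.70 CPM) in the wild-type library, 3.10-fold higher (2.32 to 4.19). Its relatives Ifitm2 (539 counts in the knockout and 155 in the wild-type library, 4.33-fold, 3.62 to 5.21) and Ifitm1 (67 counts in the knockout and 13 in the wild-type library, 6.42-fold, 3.51 to 12.7) were called higher as well. Rtp4, a chaperone of membrane receptors, had 825 counts (56.7 CPM) in the knockout and 337 counts (18.6 CPM) in the wild-type library, 3.05-fold higher (2.68 to 3.47). Bst2, the tetherin that holds budding virus on the cell, had 551 counts (37.9 CPM) in the knockout and 523 counts (28.9 CPM) in the wild-type library (ratio 1.31, 1.16 to 1.48). Ly6e, a surface protein that hinders coronavirus entry, was close to equal at 8116 counts (558 CPM) in the knockout and 9689 counts (535 CPM) in the wild-type library (ratio 1.04, 1.01 to 1.07).

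The remaining effectors ranged from well above to well below equality. Xaf1, an antagonist of the death inhibitor XIAP, had 1664 counts (114 CPM) in the knockout and 614 counts (33.9 CPM) in the wild-type library, 3.38-fold higher (3.08 to 3.71). Ifi35, a partner of the protein NMI, had 1272 counts (87.4 CPM) in the knockout and 914 counts (50.4 CPM) in the wild-type library, 1.73-fold higher (1.59 to 1.89). These were the 2 of 8 called higher in this class. Sp100, a nuclear body protein, had 10609 counts (729 CPM) in the knockout and 8987 counts (496 CPM) in the wild-type library (ratio 1.47, 1.43 to 1.51). Its relatives Sp140 (2.64-fold, 2.42 to 2.89) and Sp110 (1.62-fold, 1.55 to 1.69) were called higher. Phf11b had 794 counts in the knockout and 808 counts in the wild-type library (ratio 1.22, 1.11 to 1.35). It shares 47.0% of its words with Gm6904 and the other Phf11 genes, of which Phf11c (3.67-fold, 3.36 to 4.02) and Phf11a (2.96-fold, 2.17 to 4.10) were called higher, and the 4 Phf11 genes together had a ratio of 2.32 (2.18 to 2.47).

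Rsad2, encoding viperin, which makes a chain-terminating nucleotide, was rare and close to equal, with 75 counts (5.16 CPM) in the knockout and 87 counts (4.80 CPM) in the wild-type library (ratio 1.07, 0.778 to 1.48). The 3 members with an interval wholly below a ratio of 1 were all in this class. Cxcl10, a chemokine that attracts CXCR3-bearing T cells, had 125 counts (8.59 CPM) in the knockout and 285 counts (15.7 CPM) in the wild-type library (ratio 0.546, 0.439 to 0.676). Ifi27l2a, a small membrane protein gene, had 818 counts (56.2 CPM) in the knockout and 1313 counts (72.5 CPM) in the wild-type library (ratio 0.776, 0.710 to 0.847). Ifi44 had 4 counts in the knockout and 20 counts in the wild-type library (ratio 0.249, 0.0619 to 0.744). Cxcl9, another CXCR3 ligand, ran the other way, with 107 counts in the knockout and 34 counts in the wild-type library (3.92-fold, 2.64 to 5.95).

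Levels were compared between genes by the authors' FPKM, which divides by gene length. The order was led by Slfn2 (223 FPKM), Samhd1 (184 FPKM), Slfn1 (159 FPKM) and Ifi27l2a (121 FPKM) in the knockout library, and by Ifi27l2a (156 FPKM), Slfn2 (143 FPKM), Samhd1 (85.7 FPKM) and Slfn1 (60.6 FPKM) in the wild-type library. The median over measured members was 15.6 FPKM in the knockout and 7.44 FPKM in the wild-type library. Ifit3 took place 15 of 42 by FPKM in the knockout library, against place 27 in the wild-type library. Mx2, Rsad2, Oasl1, Tlr3 and Ifi44 were among the lowest 6 measured members in both. The length behind the authors' FPKM exceeded the GENCODE M21 exon length by over 1.5 times in 10 members, most in Ly6e (12.5 kb against 3.78 kb), whose place in this order is therefore low for its counts.

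**Figure D4:**
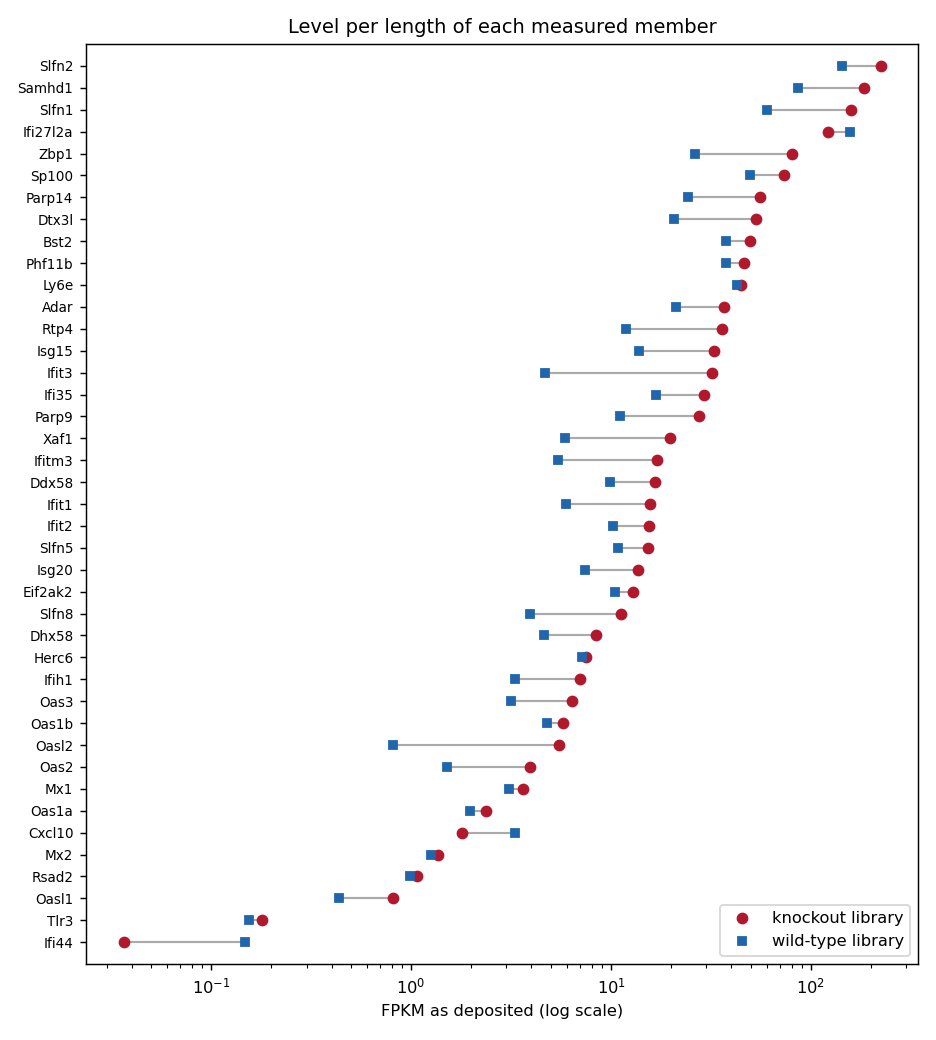
FPKM as deposited (log scale) of each of the 41 measured members in the knockout (red circles) and wild-type library (blue squares), ordered by the knockout level. Red lies right of blue for all but Ifi27l2a, Cxcl10 and Ifi44, and the gaps are widest for Ifit3 and Oasl2.

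The genes of the pathway above were read by layer, beside a background of 9.58% of all measured genes called higher and 12.3% called lower, and differences between layers were not tested. Of the ligands, 19 of 20 type I and III interferon genes listed had 0 counts in both libraries, and the other, Ifnz, had 0 counts in the knockout and 2 counts in the wild-type library. Ifng, the type II ligand, had 111 counts (7.63 CPM) in the knockout and 173 counts (9.55 CPM) in the wild-type library (ratio 0.799, 0.624 to 1.02). Of 8 measured receptor and kinase genes 2 were called higher, Ifngr2 (2.12-fold, 1.95 to 2.31) and Jak2 (1.63-fold, 1.57 to 1.69), while Ifnar1 had a ratio of 1.28 (1.23 to 1.33) and Tyk2 of 0.679 (0.640 to 0.720). Among 8 transcription factor genes 5 were called higher and 1 lower. Stat2 had 4597 counts in the knockout and 2006 counts in the wild-type library (2.85-fold higher, 2.71 to 3.01), and Irf9 was 1.80-fold higher (1.70 to 1.90). Irf1, an early interferon target, was 2.62-fold (2.50 to 2.74) and Irf7 2.31-fold higher (2.09 to 2.54). Feedback inhibitors were called higher in 4 of 9, including Socs1 (3.73-fold, 3.40 to 4.10) and Socs3 (3.44-fold, 3.28 to 3.59).

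**Figure D5:**
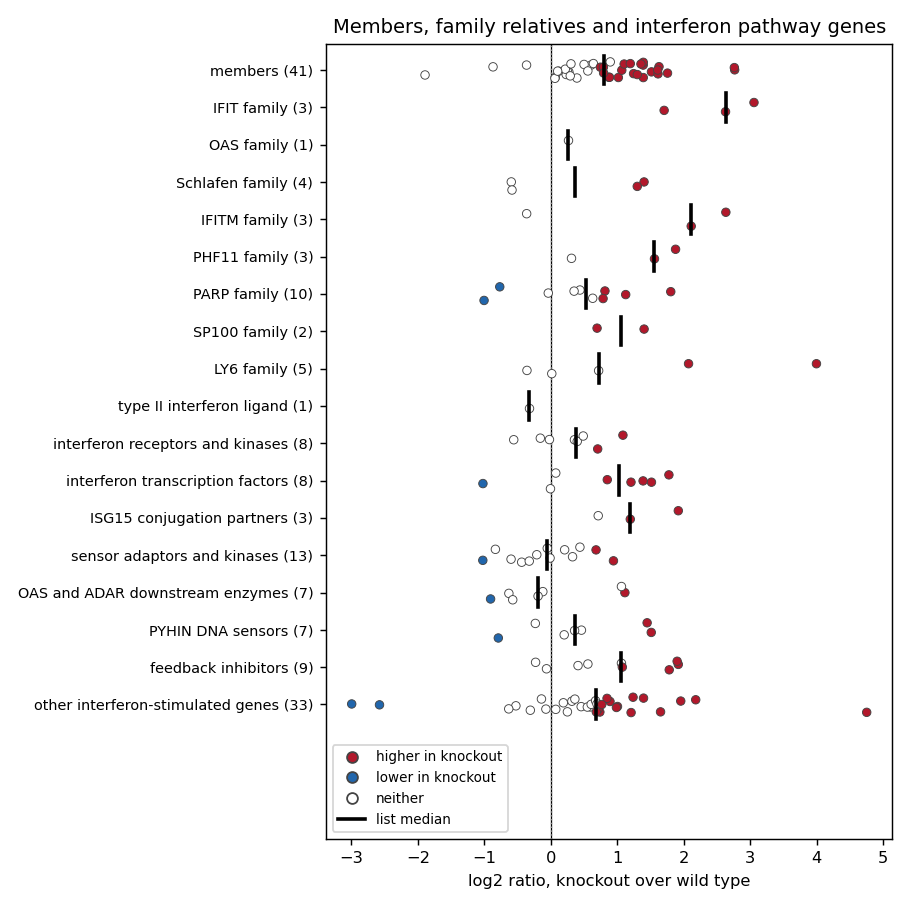
log2 ratios of knockout over wild type for the measured members, their family relatives and interferon pathway genes, 1 point a gene, with the number measured in parentheses and a bar at each list median; family rows hold relatives outside the set. Red points are called higher, blue lower and open neither, and the dotted line marks the median of all measured genes. Medians lie above 1 for the IFIT, IFITM, PHF11 and SP100 relatives, transcription factors, ISG15 partners and feedback inhibitors. Some lists share genes: Usp18 is an ISG15 partner and a feedback inhibitor, and Trex1 a feedback inhibitor and an enzyme downstream of OAS and ADAR. The medians of sensor adaptors (-0.05) and of enzymes downstream of OAS and ADAR (-0.19) lie below 0, as does the type II ligand (-0.32).

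Among 33 further interferon-stimulated genes outside the set, 15 were called higher (background 9.58%) and 2 lower (background 12.3%), with a median log2 ratio of 0.67. The GTPase-like gene Gm4951 (27.7-fold, 17.5 to 46.4) and Ms4a4c (4.53-fold, 4.03 to 5.10) stood highest. Both genes called lower were the apolipoprotein L genes Apol9a (8.21-fold lower, 4.64 to 15.8) and Apol9b (6.01-fold lower, 4.45 to 8.28).

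Antiviral genes are expressed by most blood cells, and markers of other cells differed between the libraries. The background for the calls was 9.58% of all measured genes higher and 12.3% lower. Summed markers of B cells were at 33.3 CPM in the knockout and 129 CPM in the wild-type library (8 of 8 lower), and those of erythroid cells at 18.3 CPM in the knockout and 68.5 CPM in the wild-type library (7 of 7 lower). Neutrophil markers summed to 5.57 CPM in the knockout and 7.62 CPM in the wild-type library, with S100a8, Ly6g and Elane at 0 counts in the knockout library and Elane and Retnlg at 0 in the wild-type library. Markers of NK and cytotoxic T cells summed to 82.2 CPM in the knockout and 42.7 CPM in the wild-type library (4 of 7 higher, 0 lower). Of those called higher, Prf1 was 5.22-fold (3.61 to 7.74) and Gzma 4.33-fold higher (2.996 to 6.38). Cd8a was 3.52-fold (2.89 to 4.32) and Cd8b1 1.87-fold higher (1.57 to 2.25). Ncr1, with 0 counts in the knockout and 2 counts in the wild-type library, was too rare to be among the 7 measured. The 9 markers of plasmacytoid dendritic cells summed to 292 CPM in the knockout and 240.2 CPM in the wild-type library (1 higher, 3 lower). The ratio was nevertheless below 1 in 7 of the 9, with a median log2 ratio of -1.16. Ccr9, the 1 called higher, was at 41.2 CPM in the knockout and 14.7 CPM in the wild-type library. Pacsin1, the most abundant of them, was at 160.4 CPM in the knockout and 114 CPM in the wild-type library, and Siglech was at 3.64 CPM in the knockout and 8.44 CPM in the wild-type library. Monocyte and macrophage markers summed to 307 CPM in the knockout and 344 CPM in the wild-type library (2 of 12 higher, 1 lower). The gene called lower was Ccr2, at 9.69 CPM in the knockout and 108 CPM in the wild-type library. The other 11 summed to 297.5 CPM in the knockout and 236 CPM in the wild-type library. Ccr2 was left out of that sum after its value was seen. Called higher were Csf1r, at 92.1 CPM in the knockout and 52.9 CPM in the wild-type library, and Fcgr3 (ratio 2.32, 1.85 to 2.93). The other 9 were called neither, and over the 12 the ratio was above 1 in 9 and below 1 in 3. Markers of conventional dendritic cells summed to 446 CPM in the knockout and 430.0 CPM in the wild-type library (0 of 9 higher, 4 lower). The part of these cells in the levels of the antiviral genes was not tested.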

How the data were processed

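RNA-seq libraries were made from total RNA of sorted cells with TruSeq RNA v2, per the labels' protocols, a kit that keeps no strand. TopHat and HTSeq were used with mm10, per the submitters' processing notes. The tools' versions, the annotation and the treatment of multiply matching reads are not stated there. Per the file headers, each deposited table holds a read count and an FPKM value per gene name. The authors' FPKM values differ from the counts by gene length and library total alone, since the factor between libraries was 1.25 in each of 10536 genes compared.

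Counts were scaled with TMM factors (edgeR 4.0.16, R 4.3.3). Ratios have exact conditional-binomial (Clopper-Pearson) 95% intervals, and log2 ratios used an added 0.5 counts, scaled by library. Without molecular identifiers, PCR copies count separately, and intervals and floors (3 counts) reflect counting error alone. No replicates exist, so no test was run. The calculations (Python 3.11.15, numpy 2.4.6, scipy 1.17.1, pandas 2.3.3, matplotlib 3.10.9) were tested on simulated data. Positions, exon overlap and shared 50-base words come from GENCODE M21, where each of the 42 symbols matched 1 gene, and promoters from RefSeq.

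The members and lists were chosen with earlier results of these data known. All members could be named; of relatives and pathway lists, up to 4 called genes each by the interval bound nearest to 1, plus fixed reference genes. Mavs, Ifnar1, Tyk2, Ube2l6, Cxcl9, Slfn3, Slfn10-ps, Oas1c, Siglech, Ccr2, Csf1r, Fcgr3, Foxp3, Il2ra, Ctla4 and Ikzf2 were named after their values were seen. So were Ccr9, Prf1, Gzma, Cd8a, Cd8b1, Cd74, Trex1 and Ly6c2. The tables held 212 of the 219 other genes listed. Alternatives were other scalings (plain totals, DESeq2 1.42.0 size factors, upper quartile), filters, folds, interval widths and added counts.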

Additional observations from a re-analysis of the deposited data

How the results depend on the processing

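The number of members called higher was 22 and depended most on the fold required. It was 14 where the interval had to lie wholly beyond 2-fold (background 4.34%) and 32 where it had only to exclude a ratio of 1 (background 34.3%). The number called lower was 0, and 3 where the interval had only to exclude 1 (background 35.2%): Ifi44, Ifi27l2a and Cxcl10. Under upper-quartile scaling 23 members were called higher, and under plain totals, DESeq2 size factors, a 99% interval, no filter or a minimum of 5 CPM the number was 22, with 0 lower under each. The median log2 ratio ranged from 0.79 to 0.87, the highest value with the 37 members at 5 CPM or more. Of 123 ratios of single members under other scalings, 122 stayed within their counting intervals and 0 changed sides of 1; the exception was Samhd1, at 2.21 under upper-quartile scaling. Psmd14 ranged from 0.355 to 0.366. No paired analysis was possible because each genotype has 1 library, and leaving out a library was not possible for the same reason. The 6 members below 10 CPM in both libraries had few counts, and the interval of Tlr3 ran from 0.538 to 2.52; 0 of the 6 were called.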

Other observations

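Other gene families related to the members also differed within themselves. The background was 9.58% of all measured genes called higher and 12.3% called lower. Of 10 PARP genes outside the set, 4 were called higher (40%) and 2 lower (20%). Parp12, a zinc-finger member induced by interferon, had 413 counts in the knockout and 147 counts in the wild-type library (3.50-fold higher, 2.89 to 4.25), and Parp10 had 1831 counts in the knockout and 1045 counts in the wild-type library (2.18-fold higher, 2.02 to 2.36). Parp1, the main enzyme of DNA damage repair in the family, had 1778 counts in the knockout and 3773 counts in the wild-type library (1.70-fold lower, 1.61 to 1.80).

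In the LY6 family, 2 of 5 relatives of Ly6e were called higher (40%, background 9.58%). Ly6k had 109 counts in the knockout and 8 counts in the wild-type library (16.97-fold higher, 8.31 to 40.3). Ly6c1 had 966 counts in the knockout and 286 counts in the wild-type library (4.21-fold higher, 3.68 to 4.82). Its close relative Ly6c2 was near equal, with 107 counts in the knockout and 132 counts in the wild-type library (ratio 1.01, 0.775 to 1.31). Among 7 PYHIN genes, a family of DNA sensors, 2 were called higher (28.6%) and 1 lower (14.3%, near the background of 12.3%). Ifi204 (2.86-fold, 2.17 to 3.81) and Ifi205 (2.78-fold, 1.53 to 5.26) were called higher. Aim2, the DNA sensor of the inflammasome, had 458 counts in the knockout and 987 counts in the wild-type library (1.73-fold lower, 1.55 to 1.94).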
